A study of Mus musculus with 8 samples.

Results

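The genes of glucose breakdown and of the response to low oxygen were followed in optic fissure tissue of mouse embryos. The fissure is a gap on the ventral side of the optic cup that fuses as the eye forms. A list of 35 gene symbols was searched for in the annotation of the arrays. It gave 75 of 45101 probe sets and 33 of 18194 genes. Gpi1 and Eno1 had no probe set with 1 gene. Tissue came from laser capture microdissection of frozen C57BL/6 wild-type sections, collected at embryonic day 10.5 (E10.5, 3 arrays), E11.5 (3 arrays) and E12.5 (2 arrays), each called by its stage and its label letter, A to C. All embryos were untreated, as far as the labels say. RNA of 3 embryos was pooled for each array and amplified in repeated rounds of in vitro transcription. The labels call the arrays biological replicates, but describe the pooled embryos both as 1 litter and as separate litters, so the spread between arrays has an unsettled source.

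Glycolysis splits glucose into pyruvate in a chain of enzyme steps and gives a little ATP without oxygen. Pyruvate is then reduced to lactate or passed to the mitochondria, and the retina is known for making much lactate even when oxygen is at hand. Prolyl hydroxylases of the Egln family use oxygen to mark HIF-1 alpha, the product of Hif1a, for breakdown, and when oxygen is low HIF-1 binds a short DNA core near genes of both groups and raises their transcription.

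Of the 75 probe sets, 59 passed the filter on signal, which left out the lowest 40% of all probe sets by mean log2 signal (a level of 3.94). They cover 29 genes. A further 13 were too dim, among them all those of Slc16a3 (a lactate exporter), Adm (the vasodilator peptide adrenomedullin) and Car9 (a carbonic anhydrase). The last 3 were array controls of Gapdh. Where a gene had several probe sets that passed, the one with the highest mean signal stands for it unless another is named. A change is a difference of stage means on the log2 scale, and a call is an adjusted p below 0.05 in limma over all 27022 probe sets tested.

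The 250 bases before the annotated starts of member genes were searched for the HIF core. The letters were ACGTG and GCGTG on either strand (CACGT and CACGC on the other), and the palindrome CACGTG counts on both strands. RefSeq windows on GRCm38.p6 were at hand for 33 of the 35 symbols, all but Slc2a3 and Ndrg1. A core lay upstream of 30 of the 33 genes (90.9%), and upstream of 41.5% of all 27025 genes with a window. The form ACGTG or CACGT alone lay upstream of 20 of the 33 genes (60.6%), and of 18.5% of all genes. By window the shares were 80.9% of 47 and 38.6% of 32851, since members had more windows a gene. Several members were listed as known HIF targets, so the contrast is in part fixed by the choice of list. Base composition was not matched between the members and all genes. A match describes the letters only and is no proof of binding. The windows of Hk2, Aldoa and Egln3 are shown because these are the genes whose signal fell, with the core in capitals. All lie on the minus strand and are printed 5′ to 3′ toward the gene. The Hk2 window is chr6:82774455-82774704, with cores that begin 226 and 52 bases before the start. The Aldoa window is chr7:126799255-126799504, at 1 of its 3 annotated starts, with a core 126 bases before it. The Egln3 window is chr12:54203875-54204124, with a core 229 bases before the start.
Hk2: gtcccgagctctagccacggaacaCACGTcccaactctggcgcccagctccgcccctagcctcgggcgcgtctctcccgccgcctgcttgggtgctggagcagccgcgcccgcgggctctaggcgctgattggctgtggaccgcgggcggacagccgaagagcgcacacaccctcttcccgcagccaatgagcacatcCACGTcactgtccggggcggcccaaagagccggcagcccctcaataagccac
Aldoa: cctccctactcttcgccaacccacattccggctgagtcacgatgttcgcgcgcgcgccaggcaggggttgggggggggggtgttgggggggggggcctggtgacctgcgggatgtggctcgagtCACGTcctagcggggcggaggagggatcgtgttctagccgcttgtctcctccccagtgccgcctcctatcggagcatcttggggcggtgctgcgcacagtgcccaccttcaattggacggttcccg
Egln3: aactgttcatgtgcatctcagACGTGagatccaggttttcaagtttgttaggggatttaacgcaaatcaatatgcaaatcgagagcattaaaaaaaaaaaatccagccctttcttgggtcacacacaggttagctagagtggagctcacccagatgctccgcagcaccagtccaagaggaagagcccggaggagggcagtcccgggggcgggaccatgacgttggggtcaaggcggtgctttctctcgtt

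Between E12.5 and E10.5, 4 member probe sets fell and 2 rose, and these 6 of 59 (10.2%) stand beside 4.64% of all probe sets called in that comparison. The falls were in Aldoa (2 probe sets), Hk2 and Egln3, which is 6.78% of the members against 1.56% of all probe sets called lower. Both rises were in Ndrg1, which is 3.39% of the members against 3.08% of all called higher. Between E12.5 and E11.5 the only call among the 59 was a rise of Ndrg1, 1.69% of the members, while 1.82% of all probe sets were called in either direction and 1.62% higher. Between E11.5 and E10.5 limma called 0 of 59, against 0.126% of all probe sets. At an unadjusted p below 0.05 it had 20 of 59, against 19.4% of all. The counts moved when single arrays were left out. The shares of all probe sets called in those fits are not given here. Counts from those fits are therefore not read as results about the members. Where an E12.5 array is left out, 1 remains, and it is assumed to vary like the arrays of the other stages, here and in the fits without E12.5 A or B given for single genes. For E12.5 against E10.5 there was 1 call without E12.5 B and there were 3 without E11.5 B. For E12.5 against E11.5 there were 4 calls without E10.5 C or without E12.5 A, and 2 without E11.5 C.

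The members' median lay below that of all genes in each comparison, and for E11.5 against E10.5 it turned with the scaling. The median change of the 29 genes was -0.56 for E12.5 against E10.5, with 22 genes below 0, where the median of all 13050 genes was -0.10. It was -0.35 for E11.5 against E10.5, where all genes had -0.22, and -0.15 for E12.5 against E11.5, where all genes had 0.11. The median for E11.5 against E10.5 was -0.13 without E10.5 C, -0.16 without E11.5 A and -0.53 without E11.5 C. It was 0.0122 after quantile normalization, which gives all arrays the same distribution of signals, 0.0129 without both E10.5 C and E11.5 A, and -0.00595 with the 3 prime minus 5 prime signal of Actb as a covariate. That for E12.5 against E11.5 was -0.37 without E11.5 A, -0.09 without E12.5 B and 0.02 without E11.5 C. The 18 genes of transport, glycolysis and pyruvate use had medians of -0.73, -0.50 and -0.18 in the same order of comparisons. The 11 genes of oxygen sensing and hypoxia response had -0.20, 0.01 and -0.08. Every E12.5 array lay below every E10.5 array for 14 of the 29 genes, and for 27.7% of all genes. The opposite held for 4 of the 29 genes, Hif1a, Egln1, Vegfa and Ankrd37, and for 19.9% of all genes. Every E11.5 array lay below every E10.5 array for 8 of the 29, and for 22.2% of all genes.

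**Figure D1:**
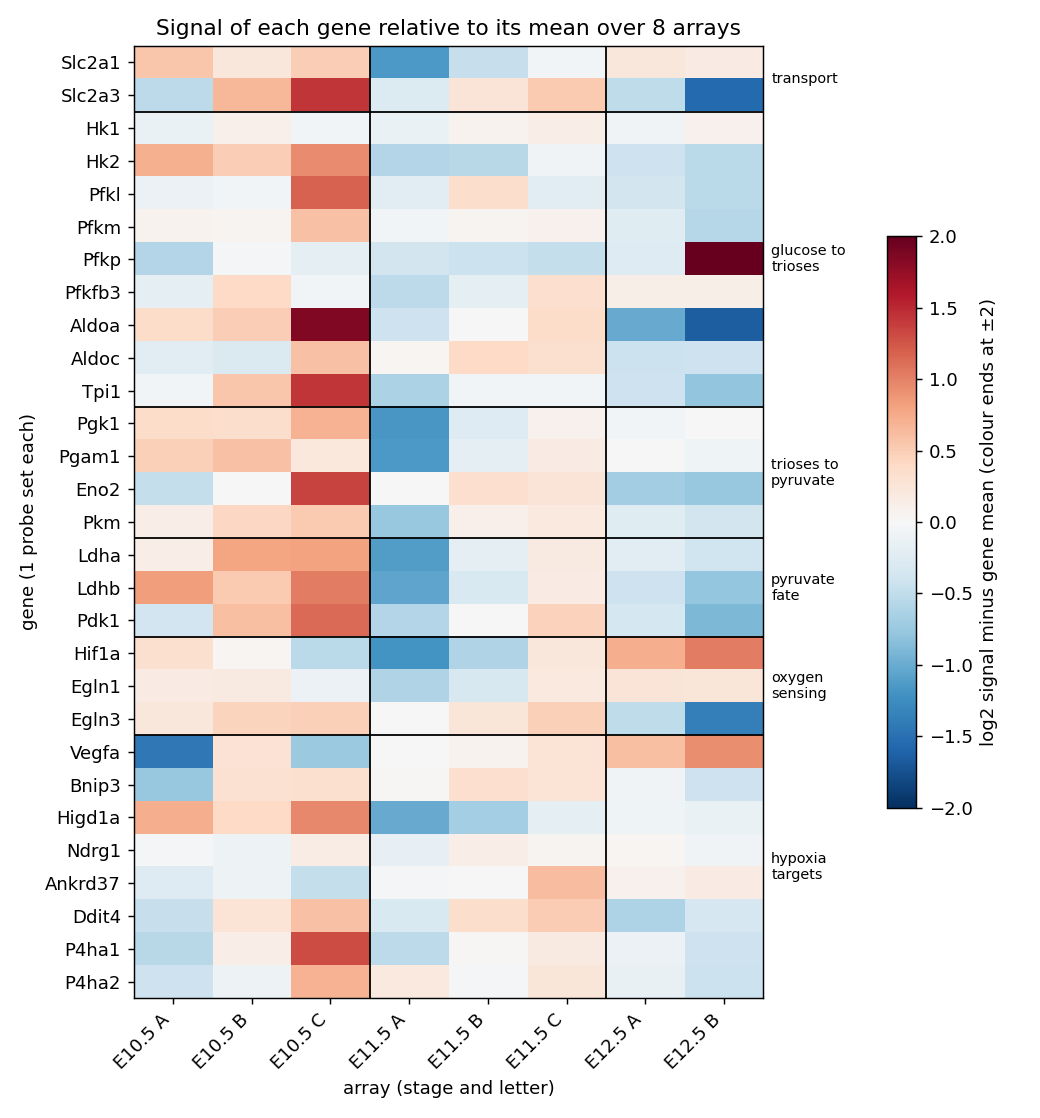
Log2 signal of the 29 member genes (rows, 1 probe set each, ordered by role) minus the gene's mean over all 8 arrays (columns). Red is above and blue below that mean, with the colour ending at a difference of 2 either way; E10.5 C is the reddest column, E11.5 A and E12.5 B are the bluest, and Pfkp stands out on E12.5 B.

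Single arrays carried much of this pattern, as the colour map of signal by array shows. E10.5 C was the highest of the 8 arrays for 18 of the 29 genes (62.1%), against 32.7% of all genes. E12.5 B was the lowest for 9 (31.0%), against 16.9%. E11.5 A was the lowest for 12 (41.4%), which is near the 38% of all genes and not read as a result about the members. At E10.5 the order was C highest and A lowest for 13 of 29, against 19.3% of all genes. The range over the E10.5 arrays reached 1 or more for 11 of 29 genes, against 20.2% of all. Slc2a3 was 1.94 higher on C than on A, P4ha1 1.86, Eno2 1.83, Pdk1 1.51 and both Aldoa and Tpi1 1.48, while Hif1a was lower on C (-0.85). For 16 of the 29 genes that range was larger than the change between E12.5 and E10.5.

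Markers of the labelled tissue were present on every array: all 9 optic cup and fissure genes measured passed the filter, and their mean log2 signal was 9.44 to 9.70 at E10.5, 8.64 to 9.36 at E11.5 and 9.30 to 9.50 at E12.5. The arrays differed in the upper part of the signal range, with a 99th percentile of log2 signal from 11.2 on E11.5 A to 12.9 on E10.5 A, while their medians lay between 4.37 and 4.48. The 3 prime minus 5 prime signal of the Actb control, which grows as amplified RNA gets shorter, was 5.45 to 6.61 at E11.5 and 6.83 to 6.96 at E10.5 (exact two-sided permutation test, p = 0.1, the smallest that 3 against 3 arrays allow). It was 6.88 to 7.21 at E12.5. The same measure of Gapdh was 4.78 to 5.17 at E12.5, above every array at E10.5 (4.19 to 4.71; exact two-sided permutation test, p = 0.2, where 0.1 is the smallest possible) and at E11.5 (3.35 to 4.63; p = 0.2). It therefore moved with the E12.5 changes, and its part in them was not tested. Neuron markers, 13 of 14 above the filter, had a summed linear signal of 329 to 515 at E10.5, 275 to 322 at E11.5, and 647 and 10900.4 for E12.5 (A and B in turn). Periocular mesenchyme markers, 11 of 13 above the filter, summed to 404 to 566 at E10.5, 1029 to 1900.1 at E11.5 and 1019 to 1656 at E12.5. Pigment epithelium markers, all 11 above it, summed to 2813 to 8239, 6365 to 11449.8 and 4667 to 7165 at the same stages. Their mean log2 signals were 6.66 to 7.61, 7.98 to 9.16 and 8.15 to 8.68 in the same order. Against E10.5, 4 of the 11 were called higher at E11.5 (median change 1.82). At E12.5, 5 were called higher and 1 lower (median change 1.53). At E12.5 against E10.5, lens markers (7 of 14 above the filter) summed to 511 to 613 against 277 to 317. Of those 7, 1 was called higher and the largest change was 4.10. Values below 0 were found for 4, and the median change was -0.01. Macrophage markers (9 of 13) had mean log2 signals of 5.12 to 5.51 against 4.83 to 5.04. Their sums overlapped (1131 to 1593 against 581 to 1468). Erythroid markers (7 of 10) had mean log2 signals of 5.88 to 6.10 against 6.31 to 6.50, with 1 called lower. Their sums overlapped too (16930 to 18223 against 17028 to 22966). Of all probe sets, 0.0962% were called higher for E11.5 against E10.5. For E12.5 against E10.5, 3.08% were called higher and 1.56% lower. Whether single markers passed the filter only through the stages where they are high was not checked here, so the marker calls are no test. The part of these cell types in the member values was not tested. In bulk tissue, fewer cells of a type and less RNA per cell cannot be told apart.

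Of the transporters, Slc2a1 and Slc2a3 bring glucose into the cell, and neither was called. Slc2a1 had log2 signals of 13.41, 13.07 and 13.35 on E10.5 A, B and C, 11.70, 12.39 and 12.80 on E11.5 A, B and C, and 13.08 and 13.02 on E12.5 A and B. All E11.5 arrays lay below all others, with a change of -0.98 (SE 0.36, limma adjusted p = 0.195) against E10.5. The change of E12.5 against E11.5 was 0.76 (SE 0.41, limma adjusted p = 0.373). Slc2a3, the high-affinity carrier of neurons and early embryos, had 8.16, 9.34 and 10.11 at E10.5, 8.41, 8.94 and 9.20 at E11.5, and 8.17 and 7.12 at E12.5. The E12.5 arrays lay below all E11.5 arrays but overlapped E10.5 A, and the change of E12.5 against E10.5 was -1.56 (SE 0.51, limma adjusted p = 0.105). Its other probe set that passed had -1.59 (SE 0.43, limma adjusted p = 0.0594).

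Among the enzymes from glucose to triose phosphates, the hexokinase Hk2 fell and its relative Hk1 kept to a narrow range. Hk2 (1422612_at, gene at chr6:82725025-82774454, GRCm38.p6) had log2 signals of 7.07, 6.86 and 7.30 on E10.5 A, B and C, 5.78, 5.81 and 6.29 at E11.5, and 5.95 and 5.83 at E12.5. Every later array lay below every E10.5 array, and E11.5 and E12.5 overlapped. The change was -1.19 (SE 0.25, limma adjusted p = 0.0247) for E12.5 against E10.5, a level 2.28-fold lower. For E11.5 against E10.5 it was -1.12 (SE 0.23, limma adjusted p = 0.103), which missed the threshold. The E12.5 call was lost without E11.5 B (limma adjusted p = 0.0522), without E12.5 A (0.117) and without E12.5 B (0.295), while the change stayed between -1.25 and -1.13 in those fits. Hk1 lay between 6.35 and 6.63 on all 8 arrays.

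Aldoa, which encodes aldolase A and cleaves the 6-carbon sugar, had the largest fall of the member genes between E12.5 and E10.5. Its brightest probe set (1439375_x_at, gene at chr7:126795234-126800994) had 10.76, 10.88 and 12.24 on E10.5 A, B and C, 9.97, 10.38 and 10.76 at E11.5, and 9.38 and 8.75 at E12.5. The E12.5 arrays lay below all others, and E10.5 C lay well above the rest. The change of E12.5 against E10.5 was -2.23 (SE 0.46, limma adjusted p = 0.0212), a level 4.69-fold lower. A second probe set, 1434799_x_at, fell by 2.16 (SE 0.42, limma adjusted p = 0.0163). The other 3 had changes of -1.56 to -1.15 and were not called, and all 5 carry the suffix for probes that can match other transcripts. Without E12.5 B the calls were lost, with changes of -1.91 (limma adjusted p = 0.307) for the brightest and -1.86 (0.266) for the second. Without E12.5 A the brightest had -2.55 and an adjusted p of 0.0564. Aldoc, the brain form of aldolase, had a change of -0.68 (SE 0.27, limma adjusted p = 0.243) for E12.5 against E11.5, and 0.22 for E11.5 against E10.5.

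The other genes of these steps were not called. Tpi1, which interconverts the triose phosphates, had 11.06, 11.66 and 12.53 at E10.5, 10.47, 11.05 and 11.05 at E11.5, and 10.70 and 10.32 at E12.5. Its change was -1.24 (SE 0.43, limma adjusted p = 0.123) for E12.5 against E10.5, and E10.5 C was again the highest array. The phosphofructokinases, which commit sugar to glycolysis, differed from each other in direction. Pfkl had -0.79 and Pfkm -0.64 for E12.5 against E10.5. Pfkp, the platelet form, had 5.43, 6.00 and 5.81 at E10.5, 5.65, 5.58 and 5.53 at E11.5, and 5.76 and 8.35 at E12.5. Only E12.5 B was raised, and the change of E12.5 against E11.5 was 1.47 (SE 0.54, limma adjusted p = 0.209). The neuron markers were also highest on that array, and their part in the Pfkp value was not tested. Pfkfb3, which makes the activator of phosphofructokinase, had 0.07 for E12.5 against E10.5.

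In the steps from triose phosphates to pyruvate no probe set was called, and all 4 genes tested had values below 0 for E12.5 against E10.5. Pgk1, phosphoglycerate kinase, had log2 signals of 13.49, 13.47 and 13.82 at E10.5, 11.95, 12.86 and 13.20 at E11.5, and 13.06 and 13.12 at E12.5. All E11.5 and E12.5 arrays lay below E10.5, with changes of -0.92 (SE 0.39, limma adjusted p = 0.23) at E11.5 and -0.50 (SE 0.43, limma adjusted p = 0.526) at E12.5. Eno2, the neuronal enolase, had 4.43, 4.89 and 6.26 at E10.5, 4.89, 5.24 and 5.15 at E11.5, and 4.21 and 4.15 at E12.5. Its E12.5 arrays were the lowest, although neuron markers were highest there, and the change against E11.5 was -0.91 (SE 0.41, limma adjusted p = 0.287). Pgam1 (phosphoglycerate mutase) had -0.47 and Pkm (pyruvate kinase) -0.66 for E12.5 against E10.5. The Gapdh control nearest the 3 prime end, outside the test, had 12.83, 12.72 and 13.36 at E10.5, 11.07, 11.85 and 12.35 at E11.5, and 12.12 and 11.54 at E12.5. Its later arrays all lay below the E10.5 arrays.

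None of the 9 probe sets tested for the genes that decide the fate of pyruvate was called. Ldhb, a lactate dehydrogenase subunit, had 13.42, 13.11 and 13.60 at E10.5, 11.52, 12.28 and 12.75 at E11.5, and 12.17 and 11.80 at E12.5. No later array reached the E10.5 arrays. The changes were -1.19 (SE 0.38, limma adjusted p = 0.162), and -0.19 after quantile normalization, for E11.5 and -1.39 (SE 0.42, limma adjusted p = 0.0853) for E12.5, each against E10.5. The E12.5 comparison passed without E11.5 A (limma adjusted p = 0.026) and without E11.5 C (0.0478), where the change itself stayed at -1.39. It did not pass without E11.5 B (limma adjusted p = 0.158), E10.5 A (0.160), E10.5 B (0.0869) or E10.5 C (0.188). The change was -1.58 without E12.5 A and -1.21 without E12.5 B. Ldha, the other main subunit, had 10.80, 11.45 and 11.47 at E10.5, 9.54, 10.47 and 10.84 at E11.5, and 10.44 and 10.27 at E12.5. Both E12.5 arrays lay below all E10.5 arrays, with a change of -0.89 (SE 0.41, limma adjusted p = 0.23). Ldha had -0.95 for E11.5 against E10.5, and -0.17 after quantile normalization. Pdk1, a kinase that holds pyruvate back from the mitochondria, had -1.07 (SE 0.46, limma adjusted p = 0.199) for E12.5 against E10.5. For E11.5 against E10.5 its stages overlapped, and it had -0.49 as deposited and 0.26 after quantile normalization.

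**Figure D2:**
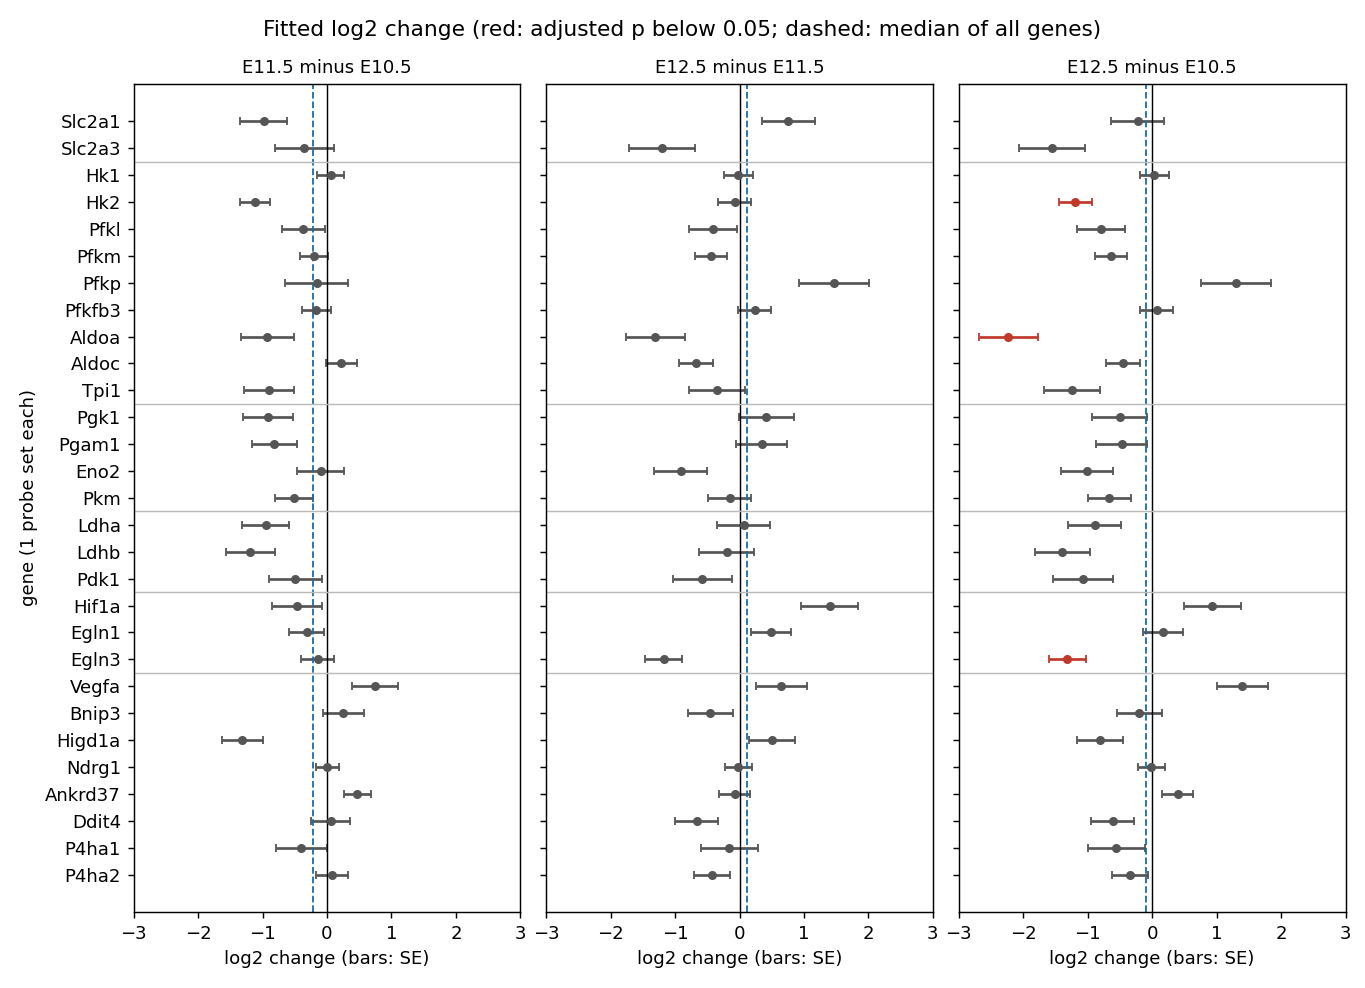
Fitted log2 change with its standard error for the 29 member genes (rows, 1 probe set each, by role) in 3 comparisons (panels). Red points have an adjusted p below 0.05 (Hk2, Aldoa and Egln3 for E12.5 minus E10.5), the dashed line is the median of all genes, and most points of the glycolytic rows lie left of 0 for E12.5 minus E10.5.

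The oxygen-sensing genes had values of both signs, and Egln3 fell. Egln3 (1418649_at, gene at chr12:54178981-54203874), a prolyl hydroxylase that is itself a known HIF target, had 6.67, 6.89 and 6.91 at E10.5, 6.45, 6.68 and 6.92 at E11.5, and 5.94 and 5.08 at E12.5. The E12.5 arrays lay below all others, while the earlier stages overlapped. The change of E12.5 against E10.5 was -1.32 (SE 0.29, limma adjusted p = 0.0268), a level 2.49-fold lower, and against E11.5 it was -1.18 (SE 0.29, limma adjusted p = 0.0705). Without E12.5 B the change against E10.5 was -0.88 (limma adjusted p = 0.456), and without E11.5 B the adjusted p was 0.0536. Its other probe set had -0.24 and was not called. Hif1a had 11.49, 11.21 and 10.64 at E10.5, 9.98, 10.56 and 11.40 at E11.5, and 11.90 and 12.20 at E12.5. The E12.5 arrays lay above all others, with a change of 1.40 (SE 0.44, limma adjusted p = 0.149) against E11.5 and 0.93 (SE 0.44, limma adjusted p = 0.238) against E10.5. A second Hif1a probe set had 0.95 (SE 0.30, limma adjusted p = 0.0975) for E12.5 against E10.5, and the dimmest of those tested 0.45. Egln1, the main oxygen sensor of the family, had 0.17 on its brightest probe set and -0.61 on the other, neither called.

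Among the hypoxia targets, calls were limited to 2 of the 4 Ndrg1 probe sets that passed the filter. Ndrg1 (gene at chr15:66929318-66969641), a stress- and differentiation-related gene, had on 1456174_x_at 4.28, 4.12 and 3.94 at E10.5, 5.10, 4.44 and 4.65 at E11.5, and 6.46 and 8.25 at E12.5. The stages did not overlap. The rise was 3.24 (SE 0.41, limma adjusted p = 0.00118) for E12.5 against E10.5, a level 9.46-fold higher, and 2.63 (SE 0.41, limma adjusted p = 0.00734) against E11.5. Without E12.5 B these were 2.35 (limma adjusted p = 0.00315) and 1.73 (0.0355), and without E12.5 A they were 4.14 and 3.52. With the Actb covariate the call against E11.5 was lost (limma adjusted p = 0.371). The second call, 1420760_s_at, had 4.22, 4.17 and 4.45 at E10.5, 4.29, 4.18 and 4.22 at E11.5, and 4.91 and 6.43 at E12.5, and rose by 1.39 (SE 0.34, limma adjusted p = 0.0400) against E10.5. That call was kept in 6 of 18 alternative fits, and the change was 0.63 (limma adjusted p = 0.445) without E12.5 B. The brightest Ndrg1 probe set lay between 5.18 and 5.48 on all arrays, and the fourth had -0.17 for E12.5 against E10.5, so the probe sets of this gene disagree. Both called ones carry a suffix (_x_at, _s_at) for probes that can match other transcripts, and the fourth is the only one of the 4 without a suffix. Neuron markers rose with E12.5 too, with mean log2 signals of 5.09 for E12.5 A and 7.90 for E12.5 B against 4.06 to 4.44 for the other arrays. The earlier values lie near the filter level of 3.94, so some of these markers may have passed only through E12.5. Calls among them are therefore not counted here, and the part of neurons in the Ndrg1 rise was not tested.

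Vegfa, the vessel growth factor, was not called. It had 4.80, 6.51 and 5.48 at E10.5, 6.23, 6.30 and 6.50 at E11.5, and 6.82 and 7.16 at E12.5. Both E12.5 arrays lay above all others, with a change of 1.39 (SE 0.40, limma adjusted p = 0.0679) against E10.5, and without E10.5 B it was 1.85 (limma adjusted p = 0.0115). Without E10.5 A it was 1.00 (limma adjusted p = 0.128) and without E12.5 B 1.23 (0.504). The other Vegfa probe set had -0.68 (SE 0.27, limma adjusted p = 0.164). Endothelial markers had a mean log2 signal of 4.38 to 4.49 at E12.5, against 4.25 to 4.36 at E10.5. Higd1a, a mitochondrial protein induced by low oxygen, had 11.95, 11.63 and 12.20 at E10.5, 10.23, 10.55 and 11.06 at E11.5, and 11.14 and 11.09 at E12.5. Its E11.5 arrays were the lowest, with a change of -1.31 (SE 0.32, limma adjusted p = 0.143) against E10.5. After quantile normalization it was -0.41, and the other probe set tested had -0.18 as deposited. The change of E12.5 against E11.5 was 0.51. Ankrd37 had 0.47 (SE 0.21, limma adjusted p = 0.255) for E11.5 against E10.5. For E12.5 against E10.5, Bnip3 (mitophagy) had -0.20, Ddit4 (an mTOR inhibitor) -0.61, and the collagen prolyl hydroxylases P4ha1 and P4ha2 -0.56 and -0.35.

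**Figure D3:**
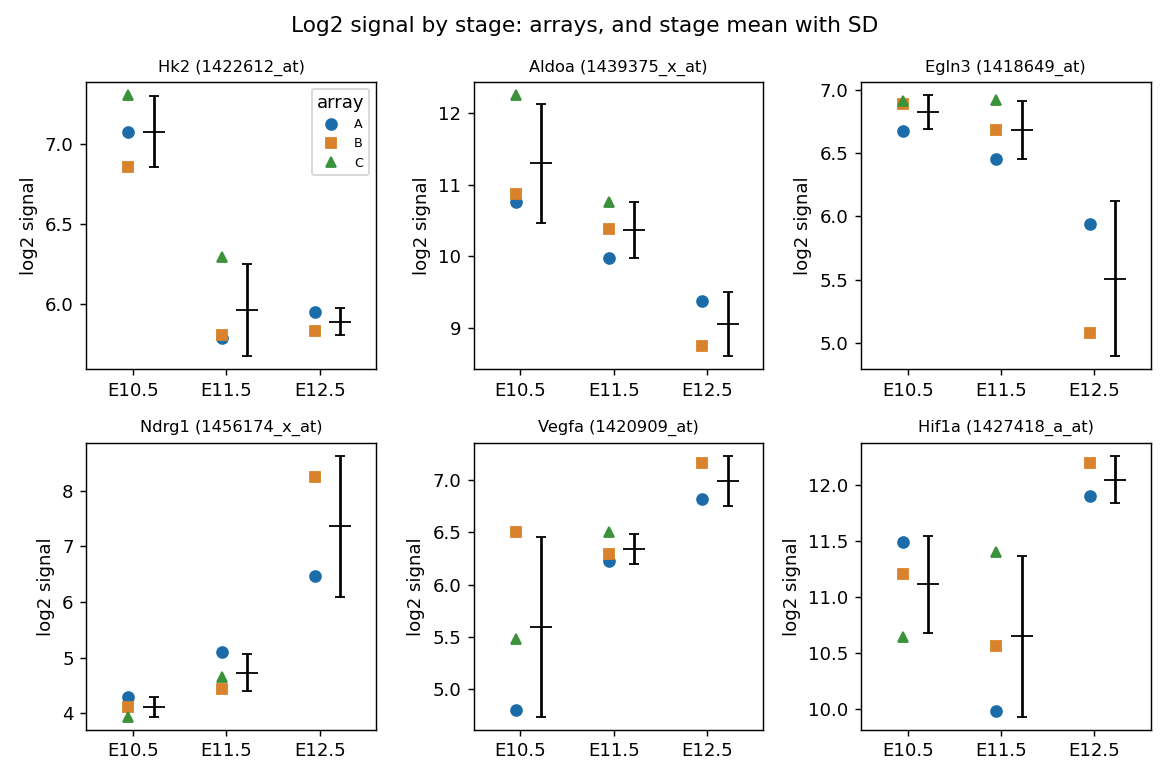
Log2 signal (y axis, its own scale in each panel and not starting at 0) of 6 member probe sets by stage (x axis). Symbols are arrays A, B and C, and the bars give the stage mean with its SD (n = 3, 3 and 2). Ndrg1 is shown by its probe set with the largest stage statistic, the other genes by their brightest. In these probe sets the E12.5 arrays lie below all E10.5 arrays for Hk2, Aldoa and Egln3 and above them for Ndrg1, Vegfa and Hif1a. For E12.5 against E10.5, 2 of the 4 Ndrg1 probe sets tested and 1 of the 2 for Vegfa had values below 0.

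The values at E11.5 depended on the scale of the arrays. Of the 59 member probe sets, 17 had a mean log2 signal of 10 or more, all 17 were lower at E11.5 than at E10.5, and their median change was -0.95. The 2087 bright probe sets of all genes had a median of -0.87, and 2038 of them were below 0. After quantile normalization the median of the 18 genes of glucose use was -0.06 for E11.5 against E10.5, and Slc2a1 had 0.02 and Pgk1 -0.01. Hk2 still had -0.99 (limma adjusted p = 0.105). For E12.5 against E11.5 the median of the same 18 genes was -0.58 after that step and -0.18 before it. For E12.5 against E10.5 it was -0.68 after and -0.73 before. On the normalized scale 12 of 59 probe sets were called for E12.5 against E10.5, 9 lower and 3 higher. They included all 6 of the calls above. The share of all probe sets called on that scale is not given here. The count is therefore not read as a result about the members. Ldhb joined the falls at -1.12 (limma adjusted p = 0.00205), and Hif1a joined the rises at 1.09 (limma adjusted p = 0.0402).

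**Figure D4:**
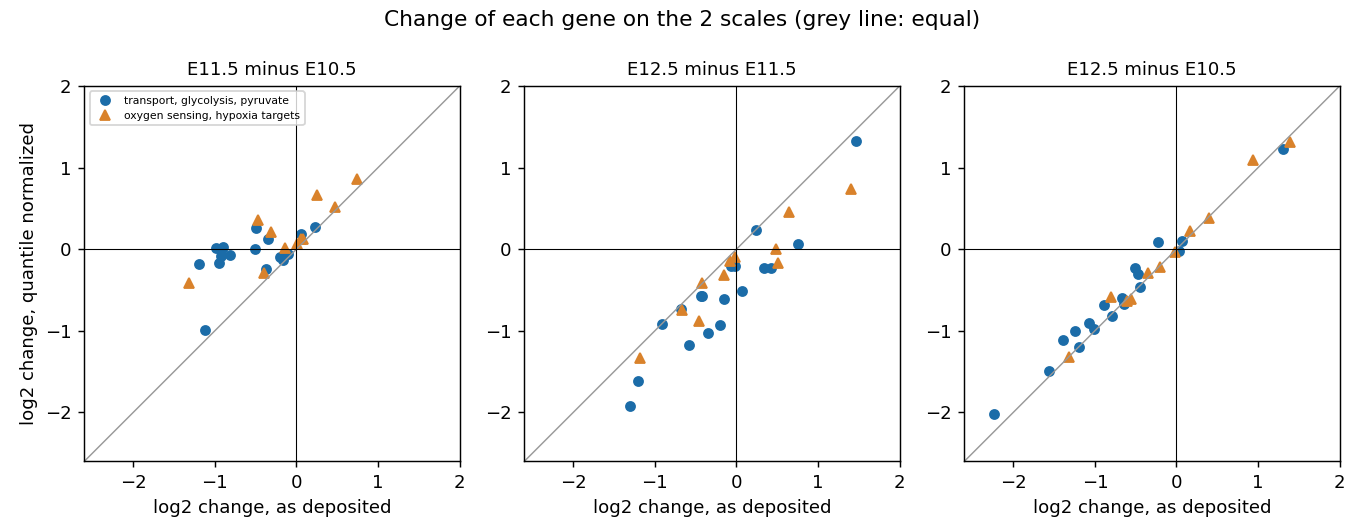
Fitted log2 change of the 29 member genes as deposited (x axis) and after quantile normalization (y axis), 1 panel for each comparison. Circles are genes of glucose transport, glycolysis and pyruvate use, triangles those of oxygen sensing and hypoxia response, and the grey line marks equal values; for E11.5 minus E10.5 many circles move up to about 0, and for E12.5 minus E10.5 the points stay near the line.

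Further genes of the same pathways were counted in the same way. Of 28 further glycolysis and pyruvate genes that passed the filter, 2 were counted as called higher and 1 lower for E12.5 against E10.5. Gbe1 is 1 of the 2 higher, and its call is not read as a result, for the reason given below. Of all probe sets 3.08% were called higher and 1.56% lower, and of all 13050 genes 455 and 232. The median change of the 28 was -0.10. Gbe1, which branches glycogen, had 3.43, 4.19 and 3.44 at E10.5, 3.56, 4.07 and 4.21 at E11.5, and 6.19 and 6.39 at E12.5. Its mean over the E10.5 and E11.5 arrays lay below the filter level, so it passed only through the E12.5 arrays, and its changes of 2.61 against E10.5 and 2.35 against E11.5 are given as values without a test. It was also the only one of the 28 counted as called for E12.5 against E11.5, and that count is not read as a result either. Pdp1, which activates pyruvate dehydrogenase, rose by 1.14 (SE 0.29, limma adjusted p = 0.046), and Eno3, the muscle enolase, fell by 1.71 (SE 0.40, limma adjusted p = 0.0336). Eno4, an enolase relative, was counted as not called by its brightest probe set (-0.82), while another of its probe sets, with a suffix, fell by 1.57 (limma adjusted p = 0.0071) against E10.5 at E12.5 and by 1.48 (limma adjusted p = 0.0401) at E11.5. Of 34 further oxygen-sensing and hypoxia genes, 0 were called higher for E12.5 against E10.5, and the median was -0.14. Falls were called in 4, beside 1.56% of all probe sets and 232 of 13050 genes called lower. They were Mif (a cytokine, -1.66), Ak4 (a mitochondrial adenylate kinase, -1.29), Pgf (placental growth factor, -1.16) and Car12 (a carbonic anhydrase, -1.10), with limma adjusted p-values of 0.0205 to 0.0402. At the other comparisons limma called 0 of these 34. At an unadjusted p below 0.05 it had 7 for E11.5 against E10.5 (19.4% of all probe sets, 2896 of 13050 genes). For E12.5 against E11.5 it had 5 (16.7% of all probe sets, 2358 of 13050 genes). Both counts were near those shares.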

How the data were processed

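Laser-captured optic fissure of 8 arrays was measured. The deposited table holds log2 signals, 1 per probe set and array. The submitters' processing notes list GCOS 1.4, and summarization and normalization are not given in the sources used here. Arrays carry no read depth, so their number limits precision. Names came from the platform annotation of 2016. Control probe sets (64) and the lowest 40% by mean signal were left out.

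In R 4.3.3, limma 3.58.1 fitted 1 model of stage over all 8 arrays (5 residual degrees of freedom), with empirical Bayes moderation, a trend on mean signal, two-sided p-values, and Benjamini-Hochberg adjustment over all 27022 probe sets. The fit was tested on simulated data, where it recovered 80% of 4-fold changes for E12.5 against E10.5. It recovered 82% for E11.5 against E10.5 and 76% for E12.5 against E11.5. The simulated probe sets were drawn independently, without the shifts that the real arrays share across many genes. Recovery in the real arrays can therefore differ. Changes near the dim end are understated.

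Named with full values were called members, the 5 largest changes each way in a comparison, and the 2 with the largest stage statistic in each role. The members and lists were chosen with earlier results of these data known. Pairing by array letter was checked and not seen, but the check cannot settle it, since deviations within a stage depend on each other. Alternatives were quantile normalization, median centring, pseudocounts of 1 and 64, no filter and a 60% filter, no trend, array weights, a replicate block, an Actb covariate, plain probe sets, and each array left out. Leaving out E10.5 C and E11.5 A together was chosen after seeing the data.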

Additional observations from a re-analysis of the deposited data

How the results depend on the processing

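Calls for E12.5 against E10.5, 6 of 59 members, numbered 12 after quantile normalization, 10 after median centring, 18 with array weights and 1 with the replicate block. Among the 24 plain probe sets (no suffix) there were 2. For the alternative settings of this section the shares of all probe sets called are not given. The counts are therefore not read as results about the members. Leaving out 1 array at a time gave 1 to 8, with 1 without E12.5 B, 3 without E11.5 B and 8 without E10.5 A. Calls for E12.5 against E11.5, of which there was 1, numbered 5 after quantile normalization, 2 after median centring, 35 with array weights, 0 among plain probe sets, 0 with the Actb covariate and 4 without both E10.5 C and E11.5 A. Leaving out 1 array gave 1 to 4, with 4 without E10.5 C or E12.5 A and 2 without E11.5 C. For E11.5 against E10.5, array weights gave 14 calls where there were 0, and no single array left out gave any. Array weights rest on E11.5 B, whose weight was 218, and the weight estimate did not converge. The median member change for E11.5 against E10.5 (-0.35) was 0.0122 after quantile normalization, 0.0129 without both E10.5 C and E11.5 A, and -0.00595 with the Actb covariate, and lay between -0.53 and -0.13 with 1 array left out. For E12.5 against E11.5 (-0.15) it was -0.51 with the Actb covariate and between -0.37 and 0.02 with 1 array left out, above 0 without E11.5 C. For E12.5 against E10.5 (-0.56) it lay between -0.72 and -0.38 with 1 array left out. The cause of these moves was not tested. Same-letter arrays were not more alike than others. Their deviations from stage means correlated between -0.39 and 0.13 over 7 pairs, and those of other letters between -0.15 and 0.41 over 14. Deviations sum to 0 within a stage, so these values depend on each other. They cannot settle whether the letters pair the arrays. With the replicate block, Hk2, both Aldoa, Egln3 and the second Ndrg1 calls were not made. Of 1269 values for 22 named probe sets, 1194 kept their side of the threshold, 25 lost the call, 50 gained it and 0 called values changed sign. Sign turned in 42 of the values, none of them called as reported. The number of arrays, 2 at E12.5 and 3 at the other stages, limits the precision.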
